A study of Mus musculus with 12 samples.

Results

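The effect of IL-4 pretreatment on gene expression in LPS-exposed macrophages was described by comparing the 3 samples that received IL-4 and then LPS (IL-4+LPS) with the 3 samples that received LPS alone (LPS). FPKM is the number of sequenced fragments of a gene per kilobase of its transcript, relative to all fragments mapped in that library. A row was kept where it reached 1 FPKM in any of these 6 samples, whether or not LPS induced it. This rule kept 10148 rows (10110 gene symbols) of the 23847 in each table, where a row is a gene symbol at a locus. Of these, 9428 reached 1 FPKM in both groups, 401 only in LPS and 319 only in IL-4+LPS, so rows of the last 2 kinds passed only through the group in which they were high. The macrophages were wild-type mouse bone marrow-derived macrophages (BMDMs) from C57BL/6 animals of 8 to 12 weeks, differentiated in culture for 6 days in L929 cell supernatant as a source of MCSF. IL-4 was given at 20 ng/ml for 24 h and LPS at 100 ng/ml for 3 h. The series also holds 3 untreated control samples and 3 samples with IL-4 alone, which makes 12 samples in 4 groups of 3. The study describes its samples as 3 individual animals from 2 independent experiments, and the labels do not say which sample came from which experiment.

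IL-4 binds its receptor on macrophages, and the kinases bound to that receptor activate the transcription factor STAT6, which drives alternative polarization. Alternatively polarized macrophages are known for secreted lectins and chitinase-like proteins, for arginase and for lipid and mitochondrial metabolism. LPS, from the wall of Gram-negative bacteria, is detected by TLR4 with its coreceptor CD14. It activates NF-kB, AP-1 and interferon regulatory factors, and the cells produce cytokines, chemokines and interferon-stimulated proteins within hours.

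FPKM totals of the 12 samples ran from 457583 to 495025. The relative depth of the 6 samples compared, read from the steps between low values, ran from 0.965 to 2.521 times that of LPS replicate 1. The first replicate stood apart in both groups: across rows, Pearson r with the other 2 was 0.9508 and 0.9515 in LPS and 0.9494 and 0.9533 in IL-4+LPS, whereas replicates 2 and 3 had r of 0.9693 and 0.9795. All 13 measured macrophage identity genes, among them Csf1r, Emr1 and Cd68, were at 1 FPKM or more in every group, although 8 were called lower in IL-4+LPS and 1, Mertk, higher. Their summed FPKM ran from 21250 to 22070 in LPS and from 10740 to 11010 in IL-4+LPS, and Lyz2 made up most of this difference. Genes that define other cell types were near 0 in both groups, with Cd3e, Pax5 and Fcer1a under 0.1 FPKM in each sample. The exceptions were neutrophil genes (summed FPKM 615.5 to 1219 in LPS and 526.2 to 998.2 in IL-4+LPS, ranges that overlapped) and a few genes of other lists. The T and NK list summed to 7.891 to 9.977 FPKM in LPS and 1.316 to 3.315 in IL-4+LPS, of which Cd4 gave 6.07 to 6.58 and 0.277 to 0.409. The dendritic cell list, with Batf3 and Zbtb46, summed to 3.117 to 5.728 and 25.0 to 29.38 FPKM. The B cell list, with Cd79b, summed to 1.67 to 1.993 FPKM in LPS and 4.914 to 6.083 in IL-4+LPS. The lists of mast and basophil, fibroblast and endothelial, and erythroid and megakaryocyte genes summed to at most 5.724 FPKM in any of the 6 samples. The part of these cells in the results was not tested. Fewer cells of one kind and less RNA per cell cannot be told apart in bulk samples.

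Expression differed between IL-4+LPS and LPS for 3446 of the 10148 rows. A row was called where limma's moderated test gave a Benjamini-Hochberg adjusted p under 0.05. 1687 rows were higher in IL-4+LPS (16.6% of those tested) and 1759 were lower (17.3%). At least 2-fold differences on the log2(FPKM + 1) scale were present in 303 of the higher and 332 of the lower rows, and at least 4-fold differences in 87 and 57. The median log2 difference was 0.56 among the higher rows and -0.54 among the lower rows, against a median of -0.03 over all rows and a median standard error of 0.121. All 3 IL-4+LPS values lay above all 3 LPS values in 21.6% of rows, and below them in 22.5%. Of the called rows, 1537 higher and 1598 lower ones were among the 9428 that reached 1 FPKM in both groups. The other 150 higher and 161 lower ones had passed only through the group in which they were high. Among these higher rows were Ear11, Ccl17, Arg1, Fn1, Pdcd1lg2, Il23a, Scd2, Ocstamp, Ltb4r1 and Cox6a2. Among the lower ones were Hpgd, Cxcl11, Adora3, Apoc1 and Ccnb1. Pairing the samples by replicate number in the fit gave 2266 higher and 2633 lower rows.

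**Figure D1:**
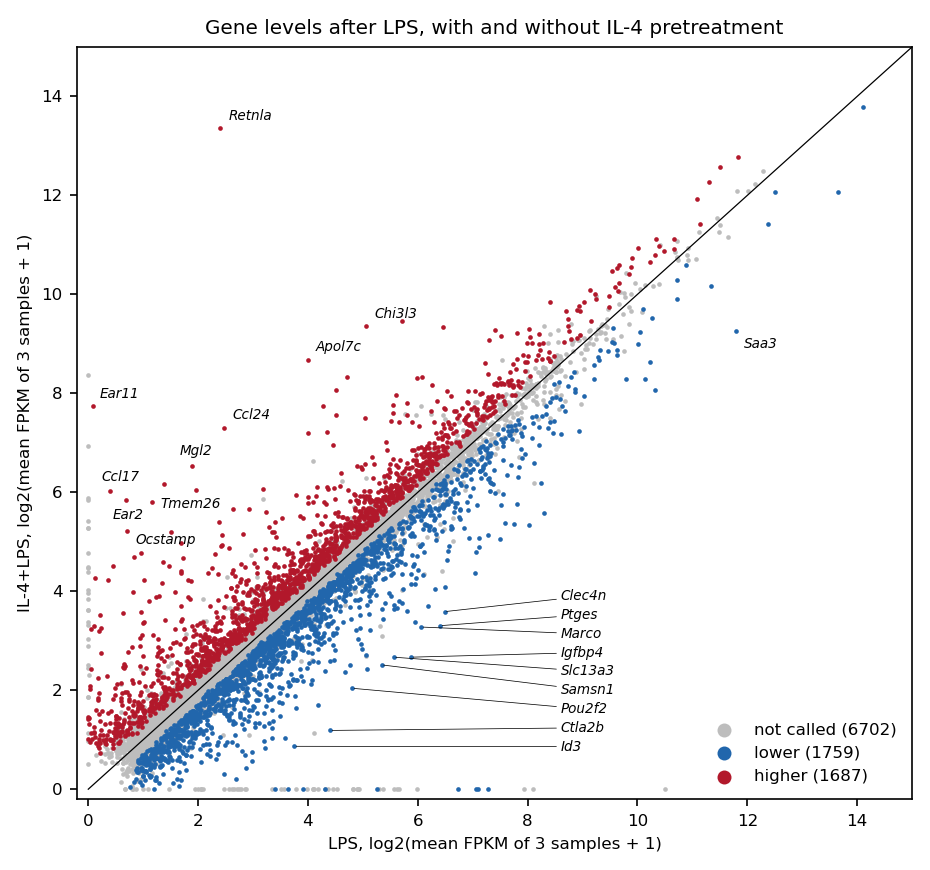
Each point is 1 of the 10148 rows, with the LPS level on the x axis and the IL-4+LPS level on the y axis, both as log2 of the mean FPKM of 3 samples plus 1. Rows called higher (red, 1687) and lower (blue, 1759) lie on either side of the line of equal levels, and Retnla stands farthest from it.

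The 10 largest increases were taken only from called rows whose groups did not overlap, so their separation was a condition of the choice. Small RNA genes and symbols with a Gm number or Rik clone name were left out. Of these 10 increases, 7 were in genes of the alternative polarization list. That list was chosen with earlier results of these data known, so the overlap is a description and not a test. Retnla, which encodes the secreted protein RELM-alpha (chr16:48842552-48844461 in mm10), was at 3.48, 2.82 and 6.61 FPKM in the LPS samples and at 9556, 11252 and 10633 FPKM in the IL-4+LPS samples, a log2 difference of 11.01 (SE 0.35, adjusted p = 1.11e-08). With Psap and Lgals3, it was among the 3 most abundant rows called higher. Ear11, a ribonuclease of the eosinophil family (chr14:51255262-51256112), was at 0, 0.0654 and 0.119 FPKM in LPS and 203, 226 and 212 FPKM in IL-4+LPS (log2 difference 7.66, SE 0.14, adjusted p = 5.03e-10). In both genes every IL-4+LPS sample was far above every LPS sample. Ccl17, a chemokine that attracts T helper cells through CCR4 (chr8:94810453-94812036), was at 0, 0.205 and 0.746 FPKM in LPS and 25.7, 86.7 and 79.7 FPKM in IL-4+LPS (log2 difference 5.48, SE 0.45, adjusted p = 7.74e-06). Ccl24, an eosinophil attractant (chr5:135569937-135573043), was at 2.30, 5.34 and 5.99 FPKM in LPS and 75.7, 201 and 195 FPKM in IL-4+LPS (log2 difference 4.78, SE 0.37, adjusted p = 4.48e-06). The groups did not overlap for either chemokine, and replicate 1 was the lowest of the IL-4+LPS samples. Apol7c, of the apolipoprotein L family, was at 20.1, 15.4 and 9.40 FPKM in LPS and 416, 431 and 382 FPKM in IL-4+LPS (log2 difference 4.74, SE 0.24, adjusted p = 2.65e-07). The other genes among the 10 largest increases were Ear2 (5.21), the lectin receptor gene Mgl2 (4.66), Tmem26 (4.65), Ocstamp, which acts in macrophage fusion (4.51), and Chi3l3, the chitinase-like protein Ym1 (4.37), all as log2 differences. Ear2, Apol7c and Chi3l3 are less certain, because 41.5%, 26.2% and 29.4% of the 50-base words of their longest transcripts also occur in transcripts of other genes.

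The 10 largest decreases, chosen in the same way and so without overlap by choice, were in genes of varied function. Igfbp4, a binding protein of insulin-like growth factors (chr11:99041260-99052643), was at 56.0, 59.9 and 57.7 FPKM in LPS and 5.72, 5.39 and 4.95 FPKM in IL-4+LPS, a log2 difference of -3.21 (SE 0.07, adjusted p = 6.76e-10). Ptges, the terminal synthase of prostaglandin E2 (chr2:30889471-30903297), was at 31.0, 126 and 94.7 FPKM in LPS and 2.39, 14 and 10.2 FPKM in IL-4+LPS (log2 difference -3.14, SE 0.56, adjusted p = 0.00164). The groups did not overlap for either gene, although Ptges was lowest in replicate 1 of both. Id3, an inhibitor of basic helix-loop-helix transcription factors, was at 8.17, 15.1 and 14.2 FPKM in LPS and 0.672, 0.788 and 1.01 FPKM in IL-4+LPS (log2 difference -2.85, SE 0.19, adjusted p = 2.05e-06). Samsn1, an adaptor protein of hematopoietic cells, was at 46.5, 32.5 and 39.7 FPKM in LPS and 5.42, 4.44 and 4.26 FPKM in IL-4+LPS (log2 difference -2.82, SE 0.20, adjusted p = 2.59e-06), and again the groups were far apart. Saa3, an acute-phase apolipoprotein, was at 1856, 4274 and 4469.5 FPKM in LPS and 147, 915 and 768 FPKM in IL-4+LPS (log2 difference -2.80, SE 0.68, adjusted p = 0.00913), so that the highest IL-4+LPS sample was below the lowest LPS sample in spite of a wide spread. The others of the 10 were the transporter gene Slc13a3 (-2.90), the C-type lectin receptor gene Clec4n, which encodes Dectin-2 (-2.94), the scavenger receptor gene Marco (-2.89), the transcription factor gene Pou2f2 (-2.77) and Ctla2b (-3.21), of whose 50-base words 74.0% occur in other genes. Marco lost its call when LPS replicate 2 or 3 or IL-4+LPS replicate 1 or 3 was left out, with adjusted p between 0.0514 and 0.0863. The most abundant rows called lower were Lyz2, Tmsb4x, the actin-binding thymosin beta-4, and Fth1, the ferritin heavy chain. Fth1 lost its call without LPS replicate 1 or IL-4+LPS replicate 2 or 3.

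Letters of the STAT6 half-site pair, TTCNNNNGAA, were looked for in the RefSeq promoters of these 20 genes, since STAT6 is the factor that IL-4 activates. The motif reads the same on both strands, and a promoter here is 250 bases before to 50 after an annotated start in GRCm38.p6. Of the 20 genes, 17 had a promoter in the table, and it held the motif in 4 of 8 with increases and in 1 of 9 with decreases, against 6.95% of all 32851 promoters. The windows below show those matches in capitals, each on its gene's strand with at most 20 bases on either side.
Retnla (145 bases before the start; chr16:48842444-48842493, plus strand): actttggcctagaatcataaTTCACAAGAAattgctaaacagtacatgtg
Ccl17 (154 bases before the start; chr8:94810279-94810328, plus strand): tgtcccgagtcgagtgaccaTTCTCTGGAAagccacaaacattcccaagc
Apol7c (72 bases before the start; chr15:77533358-77533407, minus strand): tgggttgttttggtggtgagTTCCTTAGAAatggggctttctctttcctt
Tmem26 (227 bases before the start; chr10:68723499-68723548, plus strand): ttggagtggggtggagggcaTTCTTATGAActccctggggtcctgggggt
Tmem26 (41 bases before the start; chr10:68723685-68723734, plus strand): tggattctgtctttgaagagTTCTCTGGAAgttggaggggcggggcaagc
Ptges (197 bases before the start; chr2:30903465-30903514, minus strand): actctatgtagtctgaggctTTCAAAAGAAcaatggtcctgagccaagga
Among the same 17 genes, GAAANNGAAA of interferon response elements was found in 2 promoters (3.44% of all promoters) and the kappa-B motif GGGNNTTTCC in 1 (1.63%). Both were searched on both strands, and the motifs can share bases where they overlap. These genes were selected for the size of their difference, so their shares describe only these genes. TTCNNNNGAA was in the promoters of 98 of 1341 genes called higher (7.31%), 90 of 1417 called lower (6.35%) and 6.57% of all tested genes with a promoter. A check over all rows is void, however, because 79.2% of them had a promoter in the table, under the 80% needed. Nothing is therefore read from the shares of called and tested genes.

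The alternative polarization list as a whole had 27 of 32 members higher, 24 of them at least 2-fold (median 2.22). Fn1, Arg1, Itgax, Pdcd1lg2, Cish and Ptgs1, described with their own lists, were among them. Because the list was chosen with earlier results of these data known, its count is not a test. Clec10a, a galactose-binding lectin receptor next to Mgl2, was at 9.27, 12.9 and 12.5 FPKM in LPS and 21.2, 28.3 and 29.4 FPKM in IL-4+LPS (log2 difference 1.12, SE 0.20, adjusted p = 0.00159), without overlap. With IL-4 alone the list had a median of 2.27, and 24 of its members were higher in both comparisons.

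The functions that moved together were described with gene lists, each by the number of its tested members that were higher and lower. Those counts are to be read against 16.6% higher and 17.3% lower over all rows. All lists were chosen with earlier results of these data known, so their counts are descriptions and not tests.

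**Figure D2:**
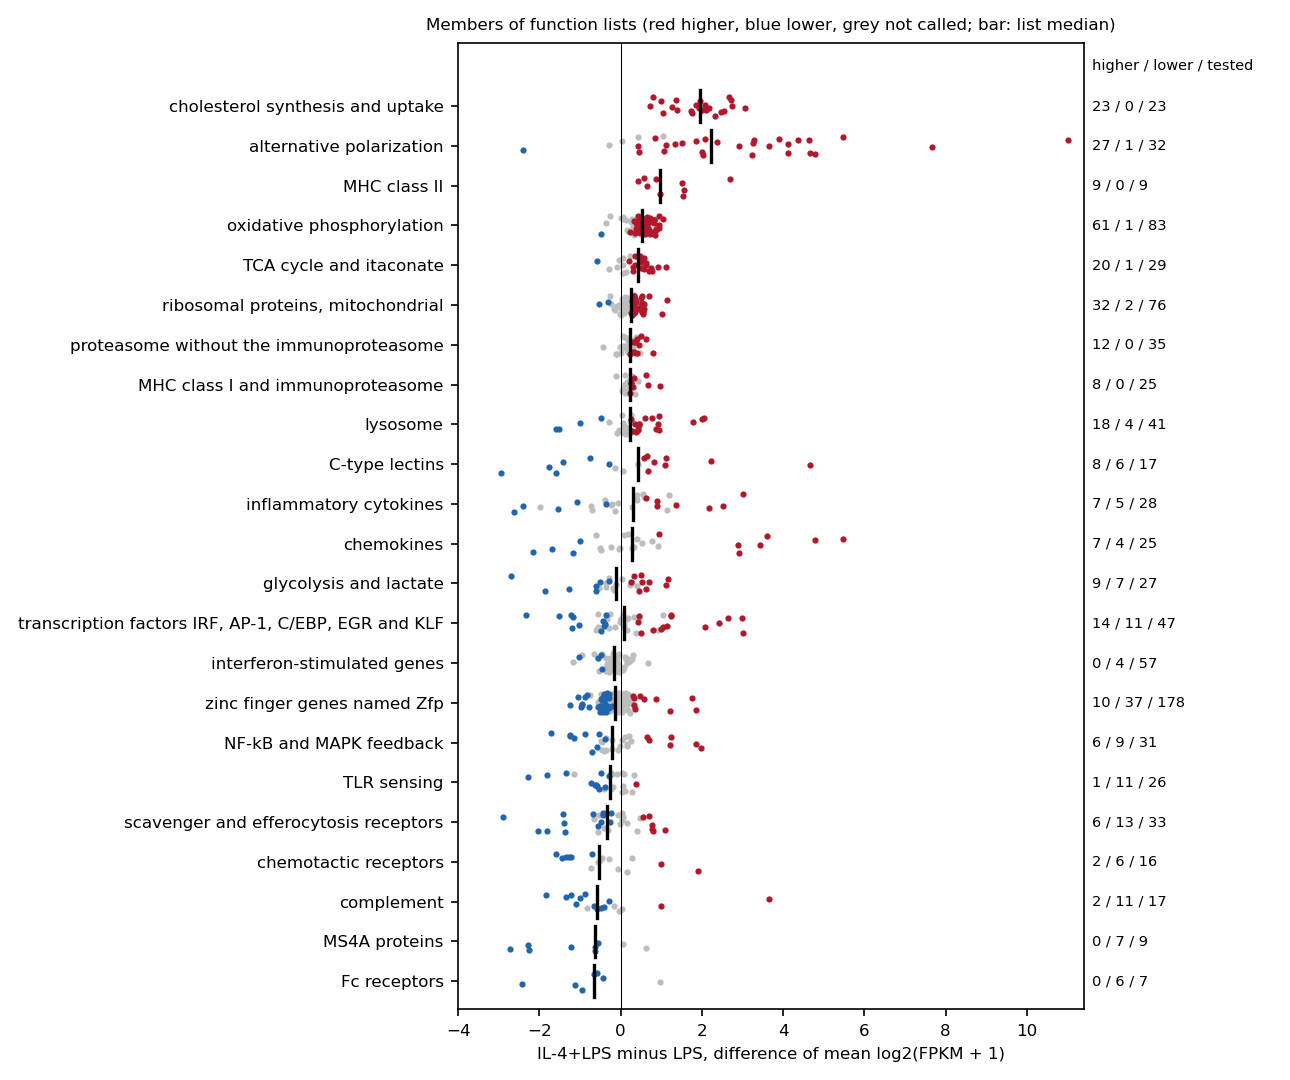
Each point is a tested member of the list named on the y axis, and the x axis gives its difference between IL-4+LPS and LPS in mean log2(FPKM + 1). Black bars mark list medians, which run from 2.22 for alternative polarization to -0.65 for Fc receptors, and the right margin gives the members called higher, called lower and tested.

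Genes of cholesterol synthesis and uptake rose without exception. All 23 tested members were higher in IL-4+LPS (median log2 difference 1.96), 20 of them at least 2-fold, and they did so under quantile normalization, median scaling and the replicate pairing as well. Fdps, which makes farnesyl diphosphate (chr3:89093588-89101967), was at 3.25, 6.58 and 5.8 FPKM in LPS and 42.0, 52.0 and 55.9 FPKM in IL-4+LPS, a log2 difference of 3.07 (SE 0.30, adjusted p = 2.72e-05). Cyp51, the lanosterol demethylase, was at 2.81, 5.03 and 5.38 FPKM in LPS and 35.5, 32.0 and 35.6 FPKM in IL-4+LPS (log2 difference 2.74, SE 0.20, adjusted p = 3.56e-06). Mvd, the mevalonate decarboxylase, was at 2.02, 2.21 and 2.39 FPKM in LPS and 22.2, 18.7 and 19.9 FPKM in IL-4+LPS (log2 difference 2.73, SE 0.13, adjusted p = 1.76e-07). No LPS sample reached the lowest IL-4+LPS sample in any of the 23 genes. In the list of LXR and cholesterol efflux genes, 8 of 24 members were higher and 6 lower. Scd2, a fatty acid desaturase, was at 0.770, 0.892 and 0.587 FPKM in LPS and 26.7, 8.00 and 9.89 FPKM in IL-4+LPS (log2 difference 3.00, SE 0.32, adjusted p = 5.54e-05), and the fatty acid synthase gene Fasn rose by 1.43. Mylip, which targets the LDL receptor for degradation, was lower (-1.27), and Apoc1 was at 1.43, 0.421 and 2.04 FPKM in LPS but listed at 0 in all 3 IL-4+LPS samples.

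Genes of antigen presentation by MHC class II were also higher. All 9 tested members were called higher (median 0.97), although quantile normalization left 8, as did leaving out any sample other than IL-4+LPS replicate 1. Ciita, the master regulator of class II transcription (chr16:10480072-10527564), was at 2.23, 2.32 and 2.09 FPKM in LPS and 17.9, 20.2 and 21.0 FPKM in IL-4+LPS (log2 difference 2.68, SE 0.12, adjusted p = 9.26e-08), with little spread within either group. H2-DMa and H2-DMb1, whose products load peptides, rose by 1.56 and 1.52, and 27.2% of the words of H2-DMb1 are shared with H2-DMb2. In the list of MHC class I and immunoproteasome genes, 8 of 25 members were higher. The largest differences were those of the chaperone genes Calr (0.96) and Pdia3 (0.68). That count was 14 with the replicate pairing, and 4 without LPS replicate 2, LPS replicate 3 or IL-4+LPS replicate 3. Of 20 T cell costimulation genes, 5 were higher and 4 lower, and 8 were higher without IL-4+LPS replicate 1. Pdcd1lg2, the PD-1 ligand PD-L2, was at 0.125, 0.129 and 0.235 FPKM in LPS and 13.4, 8.83 and 9.40 FPKM in IL-4+LPS (log2 difference 3.29, SE 0.13, adjusted p = 6.35e-08). Cd86, a ligand of CD28, was lower in every IL-4+LPS sample (-0.90), as was Icosl (-0.97). Cd40 was at 410.2, 707 and 699 FPKM in LPS and 594, 1199 and 1188 FPKM in IL-4+LPS, its groups overlapped and it was not called (log2 difference 0.69, SE 0.28, adjusted p = 0.0883), but it passed with the replicate pairing (adjusted p = 0.00908) and without IL-4+LPS replicate 1 (adjusted p = 0.00706).

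Most genes of oxidative phosphorylation and the TCA cycle were higher, by small amounts. Of 83 oxidative phosphorylation genes, 61 were higher and 1, the assembly factor gene Ndufaf1, was lower (median 0.54). Cox7b, a subunit of cytochrome c oxidase, was at 47.0, 46.6 and 49.9 FPKM in LPS and 91.4, 97.9 and 90.7 FPKM in IL-4+LPS (log2 difference 0.95, SE 0.06, adjusted p = 1.31e-06). Only 1 member of the list, Cox6a2, reached 2-fold (1.05). Of 29 genes of the TCA cycle and itaconate, 20 were higher and 1, Suclg2, was lower (median 0.42), led by Aco1 (1.12) and the malate dehydrogenase Mdh2 (0.92). Mitochondrial ribosomal protein genes were higher in 32 of 76 and lower in 2, with 21 higher without LPS replicate 1 or IL-4+LPS replicate 2. Cytosolic ribosomal protein genes were higher in 18 of 82 and lower in 1 (median 0.15), with 28 higher under the replicate pairing and 11 without IL-4+LPS replicate 2. Proteasome genes other than the immunoproteasome were higher in 12 of 35, with 23 higher under the replicate pairing.

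Transcript length moved with these differences. Rows whose longest GENCODE transcript was shorter than 1000 bases had a median difference of 0.21 (568 rows, 28% higher and 8.1% lower), and rows of 1000 to 2000 bases one of 0.07 (22.5% and 12.6%). Rows of 4000 to 8000 bases had a median of -0.12 (12.0% and 23%), and longer rows -0.17. The median transcript was 1129 bases among oxidative phosphorylation genes, 1806 among mitochondrial ribosomal and 1054 among cytosolic ribosomal protein genes, against 3248 over all rows. The oxidative phosphorylation median of 0.54 lay above that of both classes of short transcripts, and the cytosolic ribosomal median of 0.15 between them. The part of length in these lists was not tested.

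Glycolysis and arginine metabolism were divided. Of 27 genes of glycolysis and lactate, 9 were higher and 7 lower. Pfkfb3, which makes the allosteric activator of phosphofructokinase, was at 44.7, 175 and 172 FPKM in LPS and 5.47, 29.4 and 24.3 FPKM in IL-4+LPS (log2 difference -2.71, SE 0.60, adjusted p = 0.00546). Slc16a3, the lactate exporter MCT4, was at 41.2, 53.5 and 54.6 FPKM in LPS and 10.4, 14.2 and 14.5 FPKM in IL-4+LPS (log2 difference -1.86, SE 0.14, adjusted p = 3.56e-06). The groups were separate in both, with replicate 1 lowest in each group. The phosphofructokinase genes went opposite ways, with Pfkl lower (-1.27) and Pfkp higher (1.12), and the hexokinase gene Hk3 was higher (1.18). Of 19 genes of arginine, nitric oxide and polyamines, 4 were higher and 6 lower, the latter 3 without LPS replicate 2 or 3. Arg1, which turns arginine into ornithine, was at 0.190, 0.0250 and 0.0456 FPKM in LPS and 24.4, 15.2 and 15.1 FPKM in IL-4+LPS (log2 difference 4.11, SE 0.26, adjusted p = 1.31e-06). Slc7a2, an arginine transporter, was at 3.86, 29.1 and 22.4 FPKM in LPS and 92.4, 289 and 257 FPKM in IL-4+LPS (log2 difference 3.67, SE 0.62, adjusted p = 0.00123). Nos2, the inducible nitric oxide synthase, was at 16.3, 87.8 and 79.7 FPKM in LPS and 50.5, 260.3 and 256 FPKM in IL-4+LPS. Replicate 1 was low in each group, the groups overlapped, and Nos2 was not called (log2 difference 1.6, SE 0.68, adjusted p = 0.0957). It passed with the replicate pairing (adjusted p = 0.0316) and without IL-4+LPS replicate 1 (adjusted p = 0.00971).

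Lysosomal genes were higher in 18 of 41 and lower in 4. The proton pump subunit genes Atp6v0a1 and Atp6v0d2 rose by 2.05 and 2.01, and Ctsk, the collagen-degrading cathepsin K, by 1.79. Psap, which encodes the saposin precursor, was at 3735, 3618 and 3624 FPKM in LPS and 7315, 6740.2 and 6979 FPKM in IL-4+LPS (log2 difference 0.94, SE 0.07, adjusted p = 5.89e-06). The lysozyme genes went the other way: Lyz2 was at 13435, 12427 and 12782 FPKM in LPS and 4506, 4206 and 4183 FPKM in IL-4+LPS (log2 difference -1.58, SE 0.07, adjusted p = 7.65e-08), and Lyz1 differed by -1.51. Of 22 genes of iron and heme, 6 were higher and 5 lower, the latter 9 with the replicate pairing. The transferrin receptor gene Tfrc was at 20.1, 17.7 and 20.0 FPKM in LPS and 173, 123 and 146 FPKM in IL-4+LPS (log2 difference 2.86, SE 0.13, adjusted p = 1.61e-07). The iron exporter gene Slc40a1 (-2.13) and the zinc and iron importer gene Slc39a14 (-1.33) were lower, as was Cp, the copper ferroxidase ceruloplasmin (-1.77).

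Among genes of bacterial sensing, of Fc and complement receptors and of scavenging, lower members outnumbered higher ones. Of 26 genes of TLR sensing, 11 were lower and 1, Cd180, was higher. Cd14, the LPS coreceptor, was at 1156, 1348 and 1310.4 FPKM in LPS and 198, 287 and 312 FPKM in IL-4+LPS (log2 difference -2.28, SE 0.17, adjusted p = 4.01e-06). Irak3, an inhibitory kinase of the pathway, was at 65.7, 56.8 and 60.3 FPKM in LPS and 16.4, 16.2 and 17.3 FPKM in IL-4+LPS (log2 difference -1.81, SE 0.09, adjusted p = 3.32e-07), so sensors and an inhibitor were lower together. Tlr2 was lower (-1.34), and Tlr4 was not called (log2 difference -0.40, SE 0.26, adjusted p = 0.262), although it passed with the replicate pairing (adjusted p = 0.018). Cd180, a TLR4-like inhibitory receptor, overlapped between groups and lost its call without LPS replicate 2 or 3 or IL-4+LPS replicate 1.

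Fc receptor genes were lower in 6 of 7 and complement genes in 11 of 17 (medians -0.65 and -0.57). Fcgr1, the high-affinity IgG receptor, was at 88.0, 88.2 and 90.3 FPKM in LPS and 20.0, 15.6 and 12.1 FPKM in IL-4+LPS (log2 difference -2.44, SE 0.18, adjusted p = 3.1e-06). The complement receptors C3ar1 and C5ar1 were lower (-1.33 and -1.22). The members of the complement list that rose were the integrin subunits of complement receptors, Itgax and Itgb2. Itgax, CD11c, was at 33.5, 21.0 and 20.9 FPKM in LPS and 363, 297 and 308 FPKM in IL-4+LPS (log2 difference 3.66, SE 0.21, adjusted p = 7.79e-07). MS4A proteins and their relatives were lower in 7 of 9, a count of 4 without LPS replicate 1 or 3 or IL-4+LPS replicate 2 or 3. Tmem176b was at 339, 314 and 289 FPKM in LPS and 56.1, 43.7 and 40.9 FPKM in IL-4+LPS (log2 difference -2.73, SE 0.18, adjusted p = 1.73e-06), and its neighbour Tmem176a at 141, 129 and 125 FPKM in LPS and 26.0, 29.7 and 23.9 FPKM in IL-4+LPS.

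Of 33 scavenger and efferocytosis receptor genes, 13 were lower and 6 higher, the former 8 without LPS replicate 2 or 3 or IL-4+LPS replicate 3. Cd5l, a secreted scavenger protein, was at 175, 247 and 249 FPKM in LPS and 44.3, 53.6 and 61.7 FPKM in IL-4+LPS (log2 difference -2.04, SE 0.24, adjusted p = 9.93e-05). Gas6, a bridging ligand of the TAM receptors, was lower (-1.81), and its receptor gene Mertk was higher, at 11.3, 9.24 and 9.19 FPKM in LPS and 13.5, 21.9 and 18.8 FPKM in IL-4+LPS (log2 difference 0.79, SE 0.17, adjusted p = 0.00557). Chemotactic receptor genes were lower in 6 of 16 and higher in 2. The formyl peptide receptor gene Fpr1 was lower (-1.6), and the leukotriene B4 receptor gene Ltb4r1 was higher (1.90). The 17 C-type lectin genes were split, with 8 higher and 6 lower. Clec7a, the beta-glucan receptor Dectin-1, was at 71.4, 31.7 and 34.2 FPKM in LPS and 328, 154 and 165 FPKM in IL-4+LPS (log2 difference 2.22, SE 0.43, adjusted p = 0.00265), whereas Clec4d, which pairs with the Mincle receptor, was at 1245, 1139 and 1202 FPKM in LPS and 437, 385 and 367 FPKM in IL-4+LPS (log2 difference -1.59, SE 0.13, adjusted p = 8.75e-06).

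Inflammasome genes were lower in 6 of 21 and higher in 4, with none at 2-fold in either direction. Nlrp3, the sensor of the best known inflammasome, was at 267, 266 and 274 FPKM in LPS and 117, 139 and 152 FPKM in IL-4+LPS (log2 difference -0.99, SE 0.12, adjusted p = 0.000158). Casp4, which encodes the caspase that binds cytosolic LPS, was lower (-0.88), as was Ninj1, whose product ruptures the plasma membrane (-0.91). Ripk2, a kinase of NOD signalling, and Txnip, a thioredoxin-binding protein, were higher (0.78 and 0.78). The number of higher members was 1 without LPS replicate 2 or 3, which took the call from Txnip, and 2 without IL-4+LPS replicate 1.

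Cytokine genes moved in both directions. Of 28, 7 were higher and 5 lower, and 12 were higher without IL-4+LPS replicate 1. Il12a, the p35 subunit of IL-12 (chr3:68690644-68698547), was at 2.11, 5.07 and 5.49 FPKM in LPS and 24.3, 49.4 and 50.5 FPKM in IL-4+LPS (log2 difference 3.02, SE 0.30, adjusted p = 3.28e-05). Il6, a pleiotropic inflammatory cytokine (chr5:30013161-30019968), was at 48.8, 71.9 and 78.1 FPKM in LPS and 163, 355 and 447 FPKM in IL-4+LPS (log2 difference 2.17, SE 0.32, adjusted p = 0.000466). Il23a, the p19 subunit of IL-23, was at 0.0697, 0.993 and 0.603 FPKM in LPS and 1.38, 14.4 and 16.8 FPKM in IL-4+LPS (log2 difference 2.53, SE 0.61, adjusted p = 0.00875). Replicate 1 was the lowest sample of each group in all of these, and no LPS sample reached an IL-4+LPS sample. Il23a, however, reached 1 FPKM only in IL-4+LPS, so it was kept through the group in which it was high. Its call was lost with only the 6 compared samples in the fit (adjusted p = 0.0619). Il12b, the p40 subunit that IL-12 and IL-23 share, was at 9.77, 18 and 21.3 FPKM in LPS and 9.70, 15.4 and 21.8 FPKM in IL-4+LPS, with no call (log2 difference -0.06, SE 0.29, adjusted p = 0.888). Its direction turned when LPS replicate 2, LPS replicate 3 or IL-4+LPS replicate 1 was left out. Ebi3, the partner subunit of IL-27, was at 184, 228 and 236 FPKM in LPS and 29.2, 48.1 and 43.6 FPKM in IL-4+LPS (log2 difference -2.41, SE 0.18, adjusted p = 3.52e-06). Il1rn, the antagonist of the IL-1 receptor, was at 119.6, 336 and 319 FPKM in LPS and 21.2, 50.2 and 47.2 FPKM in IL-4+LPS (log2 difference -2.63, SE 0.39, adjusted p = 0.000531), and its groups did not overlap. Il1b itself was at 1187, 2247 and 2314 FPKM in LPS and 478, 2317 and 2499.6 FPKM in IL-4+LPS, with no call (log2 difference -0.38, SE 0.59, adjusted p = 0.651), and it changed sign without IL-4+LPS replicate 1 (0.39). The other members called were Csf1, Csf2, Osm and Tnfsf15, which were higher, and Il1f9, Il18 and Ltb, which were lower.

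Tnf, Il10 and Ifnb1 were not called. Tnf was at 1313, 1416 and 1357 FPKM in LPS and 1394, 2365 and 2346 FPKM in IL-4+LPS (log2 difference 0.54, SE 0.21, adjusted p = 0.069), and it passed with the replicate pairing (adjusted p = 0.0124) and without IL-4+LPS replicate 1 (adjusted p = 0.0041). The antiinflammatory cytokine gene Il10 was at 8.11, 59.4 and 49.3 FPKM in LPS and 1.6, 14.5 and 10.3 FPKM in IL-4+LPS (log2 difference -1.98, SE 0.75, adjusted p = 0.0646). Each IL-4+LPS value of Il10 lay below that of the LPS sample with its number, but the groups overlapped through replicate 1. It passed with the replicate pairing (adjusted p = 0.00746), without LPS replicate 1 (-2.84, adjusted p = 0.00664) and without IL-4+LPS replicate 2 (adjusted p = 0.0456). Ifnb1 was at 3.13, 2.14 and 2.05 FPKM in LPS and 2.07, 10.6 and 10.6 FPKM in IL-4+LPS (log2 difference 1.13, SE 0.41, adjusted p = 0.0573), and it passed without IL-4+LPS replicate 1 (adjusted p = 1.16e-05).

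**Figure D3:**
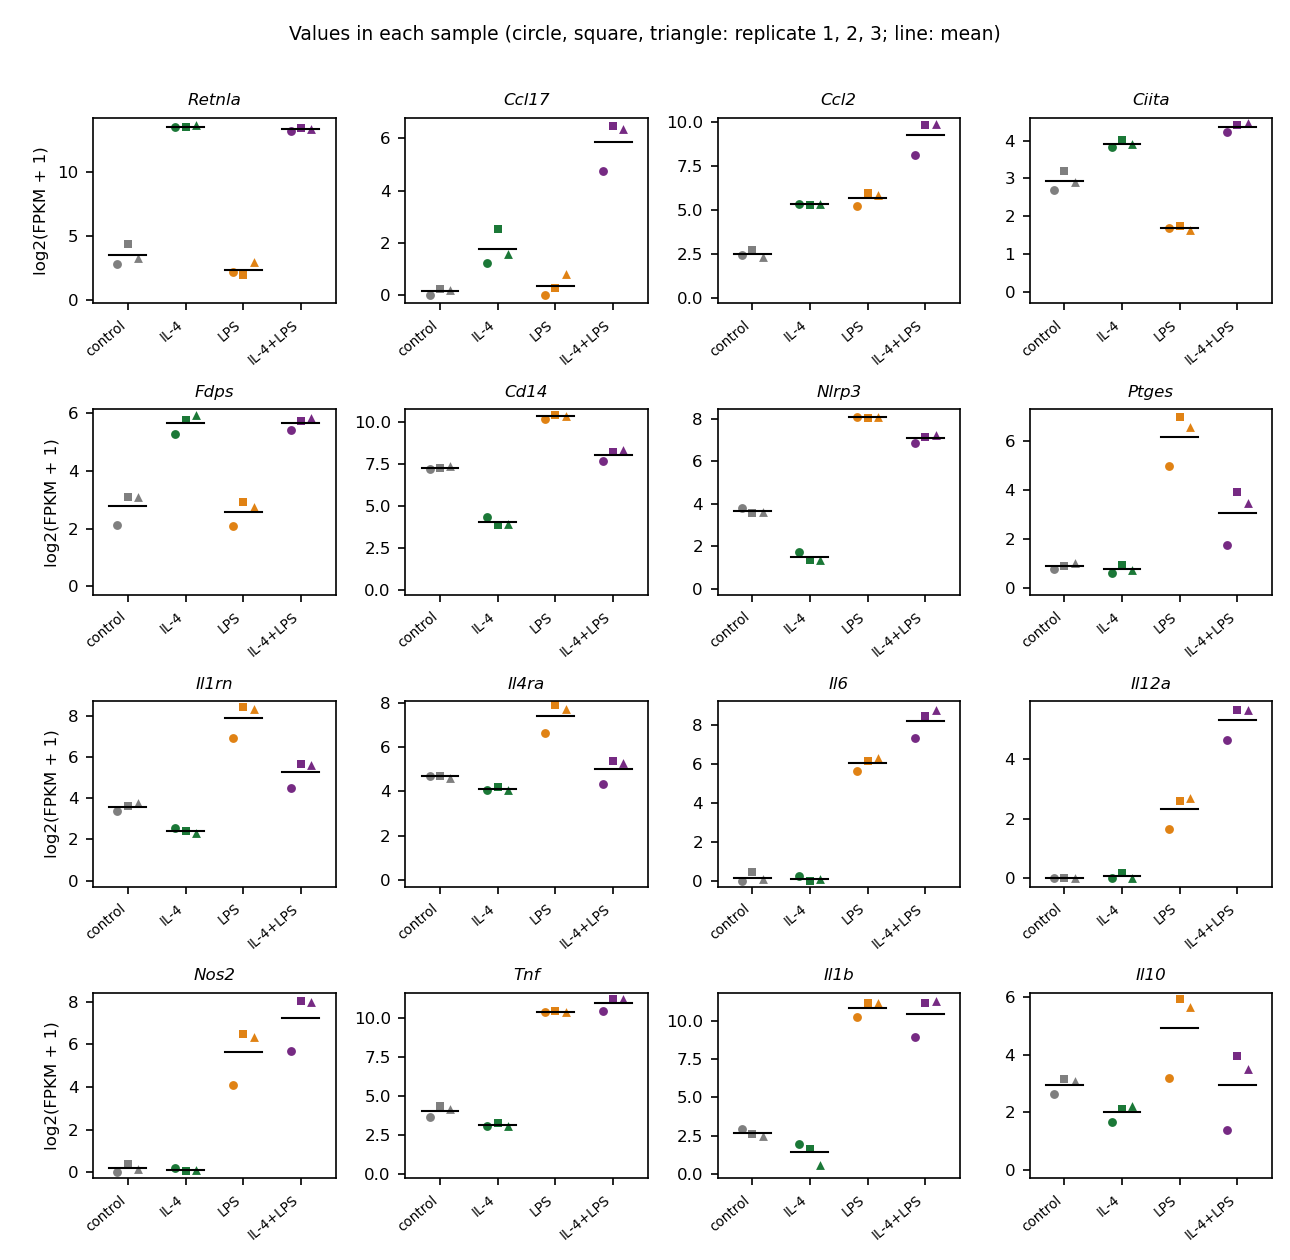
Each panel gives 1 gene in the 12 samples as log2(FPKM + 1), with the 4 groups on the x axis, a marker for each replicate number and a line at the mean of 3 samples. Retnla and Ciita separate IL-4+LPS from LPS in every sample, whereas Nos2, Tnf, Il1b and Il10 overlap between these groups.

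Chemokine genes were higher in 7 of 25 and lower in 4. Ccl2, which attracts monocytes through CCR2 (chr11:82035577-82037452), was at 37.1, 60.5 and 55.9 FPKM in LPS and 273, 922 and 928 FPKM in IL-4+LPS (log2 difference 3.6, SE 0.39, adjusted p = 6.11e-05), so even the lowest IL-4+LPS sample was above the highest LPS sample. The other chemokine genes called higher were Ccl7, Ccl8, Ccl12, Ccl22, Ccl17 and Ccl24. The lower ones were Cx3cl1, Pf4 and ligands of CXCR3. Cxcl11 was at 5.19, 6.04 and 7.35 FPKM in LPS and 0.599, 0.515 and 0.701 FPKM in IL-4+LPS (log2 difference -2.15, SE 0.12, adjusted p = 4.27e-07). Cxcl10 was at 2429.6, 2602 and 2749 FPKM in LPS and 1245, 1157 and 1028 FPKM in IL-4+LPS (log2 difference -1.18, SE 0.35, adjusted p = 0.0247). Its call was lost without LPS replicate 2 or 3 or IL-4+LPS replicate 2 or 3 (adjusted p 0.0605 to 0.0762), although the groups did not overlap. Pf4, platelet factor 4, was lower in every IL-4+LPS sample (-1.69).

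Regulators of the LPS signal were divided. Of 31 genes of NF-kB and MAPK feedback, 9 were lower and 6 higher. The phosphatase genes Dusp1 and Dusp2 were lower (-1.72 and -1.25), as was Tnip3, a partner of the deubiquitinase A20 (-1.24). Dusp1 lost its call with only the 6 compared samples in the fit (adjusted p = 0.067). Dusp4 (1.98) and Zfp36l2, an mRNA-destabilizing protein (1.85), were higher. Of 32 STAT and SOCS pathway genes, 10 were lower and 6 higher. Il4ra, the receptor of IL-4 itself (chr7:125552282-125579474), was at 99.0, 234 and 207 FPKM in LPS and 19.0, 40.3 and 37.9 FPKM in IL-4+LPS (log2 difference -2.42, SE 0.32, adjusted p = 0.000234), and it was the single member of the alternative polarization list that fell, against 27 of 32 that rose. Cish, a feedback inhibitor of STAT signalling, was at 5.8, 20.4 and 18.7 FPKM in LPS and 67.1, 193 and 179 FPKM in IL-4+LPS (log2 difference 3.23, SE 0.47, adjusted p = 0.000431). Socs1 was higher by 0.96 (adjusted p = 0.0253), a call that was lost without LPS replicate 1 or IL-4+LPS replicate 2 or 3.

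Other members of these lists separated the groups as well. Il6st, the signal-transducing gp130 chain of the IL-6 receptor family, was at 14.1, 13.1 and 13.2 FPKM in LPS and 56.1, 38.8 and 39.9 FPKM in IL-4+LPS (log2 difference 1.65, SE 0.12, adjusted p = 3.68e-06), whereas the IL-6 binding chain Il6ra was lower (-1.05) and Il13ra1, a chain of the receptor that IL-4 and IL-13 share, was lower (-1.01). Ier3, an immediate early gene of NF-kB signalling, was higher (1.24), a call lost with only the 6 compared samples in the fit (adjusted p = 0.0571).

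Few interferon-stimulated genes were called. Of 57, limma called 0 higher and 4 lower (median -0.16), and at an unadjusted p under 0.05 it gave 2 and 9. The difference was below 0 in 46 of the 57, where the median over all rows was -0.03. In 20 of the 57 all 3 IL-4+LPS values lay below all 3 LPS values, and in 4 all lay above. Over all rows these shares were 22.5% and 21.6%. The 4 called lower were Oas2 (-1.03), Ms4a4c (-0.56), Isg20 (-0.48) and Mx2, and Ms4a4c lost its call without any 1 of 5 samples. Oas2, a sensor of double-stranded RNA, was at 45.4, 45.2 and 39.0 FPKM in LPS and 23.3, 22.7 and 16.4 FPKM in IL-4+LPS, without overlap. With the replicate pairing 1 was higher and 8 lower. With only the 6 compared samples in the fit, 0 were higher and 9 lower, although that fit called fewer rows lower in all (1269). With replicates 2 and 3 alone, 4 were higher and 22 lower, and without LPS replicate 2, LPS replicate 3 or IL-4+LPS replicate 3 the lower count was 2. Of 16 interferon-inducible GTPase genes, 1 was higher, Gbp1 (0.68), and 1 lower, Igtp (-0.42), which became 2 and 3 with the replicate pairing. Igtp lost its call, leaving 0 lower, without LPS replicate 2 or 3 or IL-4+LPS replicate 1 or 3 (adjusted p 0.0605 to 0.0922). Irf1, a transcription factor that interferons induce, was higher, at 541, 456 and 425 FPKM in LPS and 890.2, 799 and 776 FPKM in IL-4+LPS (log2 difference 0.80, SE 0.15, adjusted p = 0.00214), without overlap.

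Transcription factor genes of the IRF, AP-1, C/EBP, EGR and KLF families and related factors were higher in 14 of 47 and lower in 11. Bhlhe40, a basic helix-loop-helix repressor, was at 1.69, 2.03 and 1.62 FPKM in LPS and 27.3, 20.4 and 17.8 FPKM in IL-4+LPS (log2 difference 3.02, SE 0.13, adjusted p = 9.26e-08). Batf3 and Klf9 rose by 2.98 and 2.64. Hif1a, the hypoxia-inducible factor that drives glycolytic genes, was at 47.9, 59.4 and 66.7 FPKM in LPS and 17.9, 19.2 and 21.5 FPKM in IL-4+LPS (log2 difference -1.51, SE 0.14, adjusted p = 1.56e-05). Jdp2 (-2.32) and Maf (-1.22) were lower as well. Of 178 zinc finger genes named Zfp, 37 were lower and 10 higher (median -0.15), with 64 lower under the replicate pairing and 20 without IL-4+LPS replicate 3, and 6 higher without any 1 of the LPS samples. Their median transcript length was 3597 bases.

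Lipid mediators and matrix genes held large differences in both directions. Of 20 eicosanoid genes, 6 were lower and 5 higher. Tbxas1, the thromboxane synthase, was higher (1.41). Besides Ptges, the prostaglandin-degrading enzyme gene Hpgd was lower, at 9.94, 7.68 and 7.40 FPKM in LPS and 0.830, 0.866 and 0.667 FPKM in IL-4+LPS (log2 difference -2.38, SE 0.17, adjusted p = 3.28e-06). The cyclooxygenases differed from each other: Ptgs1 was at 0.878, 1.09 and 1.00 FPKM in LPS and 10.7, 8.02 and 9.16 FPKM in IL-4+LPS (log2 difference 2.36, SE 0.12, adjusted p = 3.32e-07), and Ptgs2 at 177, 391 and 422 FPKM in LPS and 289.6, 591 and 662 FPKM in IL-4+LPS, with no call (log2 difference 0.65, SE 0.38, adjusted p = 0.214) except without IL-4+LPS replicate 1 (adjusted p = 0.0456). Of 39 genes of growth factors, matrix and proteases, 12 were higher and 8 lower, the latter 13 with the replicate pairing. Fn1, fibronectin, was at 0.191, 0.397 and 0.242 FPKM in LPS and 18.4, 17.2 and 18 FPKM in IL-4+LPS (log2 difference 3.89, SE 0.08, adjusted p = 6.59e-10). The coagulation factor genes F7 and F10 rose by 2.37 and 2.34. Serpinb2, an inhibitor of plasminogen activators, was lower (-2.30), as was Thbs1, thrombospondin (-1.39). Of 23 integrin and adhesion genes, 10 were higher and 5 lower. Itgad, CD11d, was at 1.82, 1.46 and 1.28 FPKM in LPS and 20.5, 15.3 and 15.2 FPKM in IL-4+LPS (log2 difference 2.83, SE 0.16, adjusted p = 7.47e-07), well apart in all samples. Vcam1 was at 49.9, 61.0 and 53.9 FPKM in LPS and 139.7, 217 and 209 FPKM in IL-4+LPS (log2 difference 1.74, SE 0.37, adjusted p = 0.00468), and Itgal, the alpha subunit of LFA-1, was lower (-1.04).

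Genes of the NADPH oxidase and antioxidant defence were lower in 9 of 27 and higher in 5, with Rac2 (-1.15) and the glutathione reductase gene Gsr (-1.10) lower by the most. The higher count was 3 without LPS replicate 1 or 2 or IL-4+LPS replicate 2 or 3. Of 16 purinergic genes 5 were lower and 2 higher, which became 7 and 4 with the replicate pairing, and 2 were lower without LPS replicate 3. The higher count was 1 without LPS replicate 2 or 3, as P2rx7 lost its call. The adenosine receptor gene Adora2b was lower (-1.57), a call lost without LPS replicate 3 (adjusted p = 0.0503). Adora3, another adenosine receptor gene, was lower too (-1.39), but 26.8% of its words are shared with other genes. P2ry14 was higher (1.62). Survival and cell death genes were lower in 6 of 26 and higher in 3, without a 2-fold difference, and 5 were higher without IL-4+LPS replicate 1. Cell cycle and DNA replication genes were lower in 10 of 44, among them the cyclin genes Ccnb1 and Ccnb2 (-0.88 and -0.89), and higher in 5, of which Ccnd2 changed most (3.98, 8.89 and 8.77 FPKM in LPS and 14.3, 32.8 and 35.3 FPKM in IL-4+LPS). Rows of small RNA genes, which poly-A libraries capture poorly, were called higher in 2 and lower in 10 of 163, and the lower count was between 2 and 6 with 1 of the 6 samples left out.

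The IL-4 effect with LPS was then set beside the IL-4 effect without LPS, IL-4 minus control, which uses the other 6 samples. In the same rows, IL-4 alone gave 1681 higher (16.6%) and 1993 lower (19.6%). Of the 1687 rows higher in IL-4+LPS than in LPS, 996 (59.0%) were also higher in IL-4 alone, 63 were lower and 628 were not called. Of the 1759 lower rows, 980 (55.7%) were also lower, 69 were higher and 710 were not called. The shared rows were 59.3% of those higher and 49.2% of those lower in IL-4 alone. Across rows the 2 differences had a Pearson r of 0.602, a description over genes that share their samples and are not replicates. All 23 cholesterol genes, 52 of the 61 oxidative phosphorylation genes and 7 of the 9 MHC class II genes called higher were also higher with IL-4 alone.

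**Figure D4:**
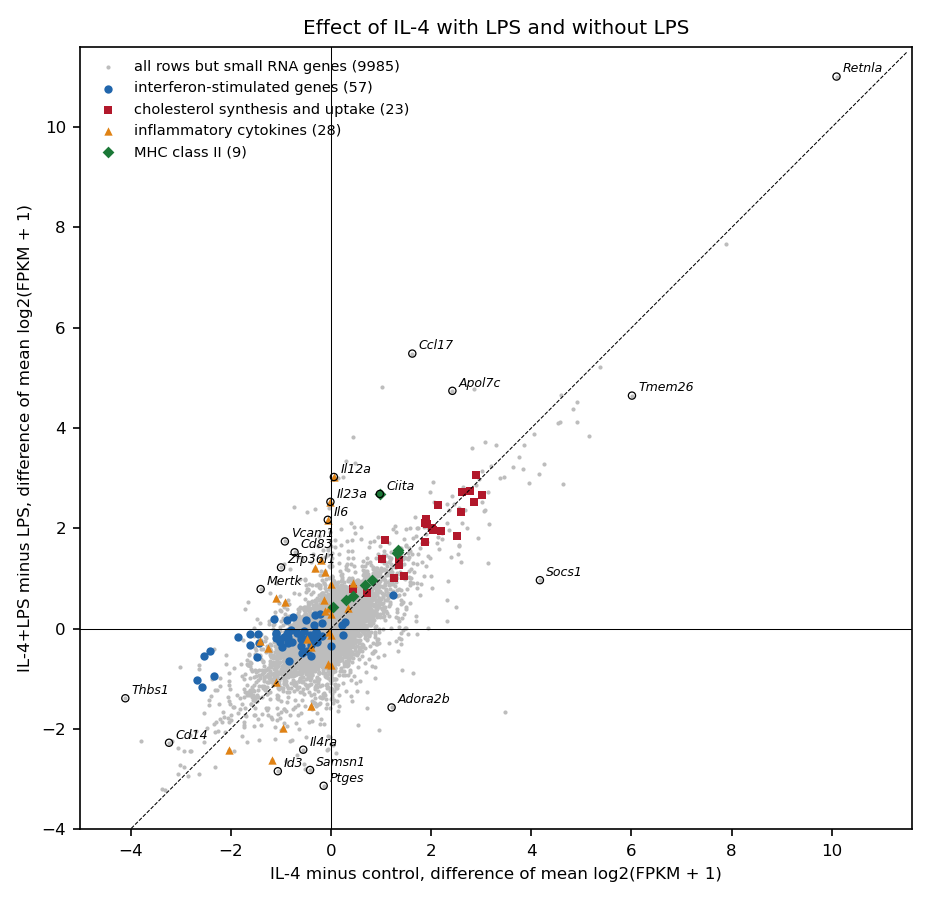
The x axis gives IL-4 minus control and the y axis IL-4+LPS minus LPS, both as differences of mean log2(FPKM + 1), for 9985 rows without the small RNA genes. Cholesterol synthesis genes lie near the dashed line of equal effects, interferon-stimulated genes mostly lie to the left at values near 0 on the y axis, and Il12a, Il6 and Il23a lie on the vertical axis.

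Cytokines and interferon-stimulated genes were set side by side in the same way. With IL-4 alone 7 of the 28 cytokine genes were lower, and Il12a, Il6 and Il23a were under 1 FPKM with and without IL-4. The IL-4 effect of Il12a was 0.06 without LPS and 3.02 with it, and that of Il6 was -0.06 and 2.17. Interferon-stimulated genes were lower in 38 of 57 with IL-4 alone (median -0.67) and in 4 with LPS. The count with LPS was 9 where the fit held only the 6 compared samples. The difference between the IL-4 effects was called per row, and it was positive in 406 (4.0%) and negative in 469 (4.62%) of all rows. It was positive in 6 of the 28 cytokine genes. It was positive in 6 of the 57 interferon-stimulated genes as well, so for the other 51 a difference between the effects was not shown. Pairing by replicate number raised the counts over all rows to 1001 and 1053, and leaving out LPS replicate 3 lowered them to 244 and 305.

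For some genes the IL-4 effect was larger with LPS or had the other sign. Ccl17 was at 0, 0.20 and 0.162 FPKM in control and 1.35, 4.81 and 1.99 FPKM in IL-4, and its IL-4 effect was larger with LPS by 3.86 (SE 0.64, adjusted p = 0.00417). Cd83, a costimulatory protein of activated cells, was at 27.1, 31.9 and 30.1 FPKM in control and 19.8, 16.1 and 16.8 FPKM in IL-4, and at 109.9, 83.7 and 82.1 in LPS and 312, 239 and 244 in IL-4+LPS, so IL-4 went with a lower level without LPS (-0.73) and a higher level with it (1.52). The same change of sign was called for Mertk (-1.40 and 0.79), for Zfp36l1, an mRNA-destabilizing protein (-1.0 and 1.22), and for Cd180 (-0.64 and 0.39). Adora2b went the opposite way, at 2.03, 2.05 and 2.15 FPKM in control, 5.87, 6.07 and 6.43 in IL-4, 2.85, 13.7 and 10.8 in LPS and 1.12, 2.52 and 2.39 in IL-4+LPS (1.21 without LPS and -1.57 with it). Ptges and Samsn1 had effects of -0.14 and -0.42 without LPS, neither called. Mean Ptges was 0.865 FPKM in control and 0.691 FPKM in IL-4, so little lowering could be seen without LPS. The difference between the effects was -2.99 (SE 0.79, adjusted p = 0.0437) for Ptges and -2.40 (SE 0.28, adjusted p = 0.000669) for Samsn1. Thbs1 was lower by more without LPS (-4.10) than with it (-1.39), a difference of 2.71 (SE 0.42, adjusted p = 0.00284).

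Other genes had no call for IL-4 without LPS and were lower after pretreatment with LPS. Serpinb2 was at 0, 0 and 0.0570 FPKM in control and 0.0473, 0 and 0 FPKM in IL-4, rose in LPS to 14.7, 41.0 and 41.4 and was at 2.66, 6.69 and 7.39 FPKM in IL-4+LPS, a difference between the effects of -2.29 (SE 0.54, adjusted p = 0.0264). Jdp2, an AP-1 repressor, was at 3.80, 4.77 and 4.54 FPKM in control, 5.06, 4.45 and 4.16 in IL-4, 55.4, 99.8 and 80.4 in LPS and 7.74, 20.3 and 18.8 in IL-4+LPS, and the difference between its IL-4 effects was -2.37 (SE 0.44, adjusted p = 0.00721). For Cxcl11 that difference was -2.13 (SE 0.16, adjusted p = 4.9e-05). Cxcl11 was at 0.0602, 0 and 0 FPKM in control and at 0 in every IL-4 sample. Like Serpinb2, it was too low without LPS for a lowering by IL-4 to be seen. Jdp2 was near equal in control and IL-4. All 3 genes were lower in every IL-4+LPS sample than in every LPS sample. Il4ra (-1.86), Hif1a (-1.28), Slc39a14 (-1.50), Dusp2 (-1.78) and Tnip3 (-1.54) also had negative differences between the effects that passed the test.

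Positive differences between the effects were called for Vcam1, Zfp36l2, P2ry14 and Ciita among others. Vcam1, an adhesion molecule for leukocytes, was at 0.989, 4.79 and 1.34 FPKM in control, 0.341, 1.32 and 0.284 in IL-4, 49.9, 61.0 and 53.9 in LPS and 139.7, 217 and 209 in IL-4+LPS, a difference between the effects of 2.66 (SE 0.53, adjusted p = 0.0108). Zfp36l2 was at 94.3, 93.0 and 83.2 FPKM in control, 79.5, 73.1 and 75.6 in IL-4, 8.08, 3.68 and 3.77 in LPS and 16, 24.1 and 21.4 in IL-4+LPS, a difference of 2.10 (SE 0.32, adjusted p = 0.00289). P2ry14, a receptor of UDP-sugars, had IL-4 effects of 0.09 without LPS and 1.62 with it. Ciita was at 5.52, 8.12 and 6.54 FPKM in control and 13.2, 15.2 and 13.9 FPKM in IL-4, and its effect with LPS exceeded that without by 1.71 (SE 0.16, adjusted p = 0.000219). The same sign applied where IL-4 lowered a gene less with LPS than without: Tlr2 had effects of -2.39 and -1.34, Nlrp3 of -2.21 and -0.99, Cd86 of -1.72 and -0.90 and Oas2 of -2.67 and -1.03. Socs1 went the other way, with a larger increase without LPS (4.17) than with it (0.96), and the difference was -3.21 (SE 0.41, adjusted p = 0.00103).

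LPS minus control is given only side by side, since it shares the LPS samples with the comparison. Of the 1687 rows higher after pretreatment, 229 were higher and 1100 lower in LPS than in control, and of the 1759 lower rows, 596 were higher and 785 lower. The shares over all rows tested are not given here, so these counts are not read as a result about the called rows. Among genes named here, Saa3, Ptges and Nlrp3 had LPS minus control differences of 7.77, 5.29 and 4.40. Retnla, Ciita and Tfrc had -1.14, -1.25 and -0.87.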

How the data were processed

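Poly-A RNA of the samples was sequenced by the authors, who deposited 1 table of FPKM values per sample. The submitters' processing notes name TopHat2 2.0.7, Cufflinks 2.0.2 and mm10, and FPKM is scaled by the authors to each sample's mapped fragments, so a change in RNA composition shifts all other genes. Fragment counts were not analysed here, and absolute depth is unknown. Tables were joined on gene symbol, locus and transcription start. Rows of at least 1 FPKM in any of the 6 compared samples were transformed to log2(FPKM + 1), on which the change of low genes is understated. In R 4.3.3, limma 3.58.1 estimated the 4 group means from the 12 samples together (intensity trend), with a two-sided moderated test and Benjamini-Hochberg adjustment over 10148 rows at 0.05. The fit was tested on simulated data without replicate effects, so that test does not cover the pairing by replicate number.

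The members and gene lists were chosen with earlier results of these data known. Named genes were the 10 largest called, non-overlapping differences in each direction with a group mean of at least 5 FPKM, up to 3 called genes per list and direction, the 3 most abundant called rows and 17 defining genes (1 more is not reported here); a few others were named after their values were seen, to complete a count of 5 or fewer or a list of called chemokine or cytokine genes. Lists were described by counts, with no set test. Replicate numbers in the labels were checked for pairing: deviations of same-numbered LPS and IL-4+LPS samples had r of 0.3864, 0.1805 and 0.1188, each above 0.1, so fits with the number as a block are given. Replicates 2 and 3 also correlated with each other's number (0.1334 and 0.2189). P-values measure the spread between these samples. Promoters and transcripts came from RefSeq (GRCm38.p6) and GENCODE vM21. Figures used matplotlib 3.10.9 in Python 3.11.15.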

Additional observations from a re-analysis of the deposited data

Results flagged for a closer look

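The IL-4 effect differed with and without LPS, by a test of the difference itself, in 406 rows with a positive and 469 with a negative value among 10148. Of the 20 genes with the largest differences between IL-4+LPS and LPS, chosen as described above, 7 were among these rows. They were chosen for a large value that enters the tested difference, so the choice itself favours such calls. The effect with LPS exceeded that without LPS by 3.86 for Ccl17, 2.32 for Apol7c and 1.92 for Ccl24 on the log2(FPKM + 1) scale. It was smaller by a value of -1.36 for Tmem26. It was more negative by -1.79 for Id3, -2.40 for Samsn1 and -2.99 for Ptges. This scale understates changes of low genes. Mean control levels were 0.121 FPKM for Ccl17, 0.547 for Tmem26, 0.621 for Ccl24, 0.807 for Apol7c, 0.865 for Ptges and 1.28 for Id3. IL-4 alone brought mean Id3 down to 0.0957 FPKM, so little further lowering could be seen without LPS. A larger IL-4 effect with LPS was therefore not shown for Id3. Among the named genes, 5 were called in opposite directions with and without LPS: the difference was 2.25 for Cd83, 2.22 for Zfp36l1, 2.19 for Mertk, 1.03 for Cd180 and -2.79 for Adora2b. All 63 higher and 69 lower rows that IL-4 alone moved the opposite way had a called difference, so that call adds nothing to the opposite directions. Groups of 3 samples are too small for a test of single outlying samples.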

How the results depend on the processing

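The counts of higher and lower rows stayed within 1.5 times of 1687 and 1759 under a pseudocount of 0.1, both other filters, quantile normalization, median scaling, no intensity trend, the 6 samples alone, both fits with the replicate block, and the unadjusted p. The block gave 2266 and 2633 rows with 12 samples. Leaving out 1 sample gave 1344 to 1694 higher and 1355 to 2049 lower rows. A 2-fold minimum left 303 and 332, and replicates 2 and 3 alone gave 2856 lower rows. Differences between the IL-4 effects were positive in 1001 and negative in 1053 rows with the replicate block, and in 1320 and 1340 with replicates 2 and 3 only. With 1 sample left out they ran from 244 to 513 and from 305 to 610, the lowest without LPS replicate 3. The shares also called in IL-4 alone ran from 59.7% to 64.0% and from 55.8% to 59.7% with 1 sample left out. Of 198 called named genes, 177 kept their call with each sample left out in turn, and 0 changed sign. With only the 6 compared samples in the fit, 183 of them kept their call and 15 lost it. Among those that lost it were Il23a, Dusp1, Ier3, Socs1, Txnip, Adora2b, Cd180, P2rx7 and Fth1. With 1 sample left out, Il12b ran from -0.376 to 0.22 and Il1b from -0.8 to 0.392. Il12b turned positive without LPS replicate 2 (0.035), LPS replicate 3 (0.148) or IL-4+LPS replicate 1 (0.22), and Il1b without the last (0.392) and with replicates 2 and 3 only (0.078). The causes were not tested. With 12 samples the block changed no other named call than those of Cd40, Il10, Nos2, Tlr4 and Tnf, and with the 6 samples alone it changed that of Ptgs2 as well. The fit without a filter left out rows at 0 in all 12 samples. Low values are limited by an unknown depth.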
